A study of Homo sapiens with 4 samples.

Results

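Genes of the endoplasmic reticulum (ER) stress and ATF4 responses were examined in GIST-T1 cells that received a miR-34a mimic. The 39 genes were chosen by name, as ER chaperones and degradation factors, the stress sensors, and the ATF4-driven amino acid response, out of 36337 gene names on the array. All 39 were found, on 51 of 50599 array features of 60 bases. Where a gene had several features, the feature with the highest mean signal stands for it. GIST-T1 is an established cell line from a human gastrointestinal stromal tumor (GIST), and a single line limits the comparison to that line. In each group 3000000 cells were electroporated with 100 pmol of RNA and harvested for total RNA after 48 h. The first group received a synthetic duplex that stands in for mature miR-34a (the miR-34a mimic). The other received mirVana Negative Control #1, the control RNA of the same product line, so both groups carry the electroporation and an RNA load. Each group has 2 arrays, and 100 ng of RNA per array was labeled with Cy3. The sources do not state whether the replicates came from separate transfections, so p-values measure the spread between these arrays, which may be technical. An untransfected culture and cells treated with an ER stress drug were not analysed here. The question was which transcripts differed after the miRNA was supplied.

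The ER folds and glycosylates secreted and membrane proteins. When misfolded proteins build up, the sensors IRE1 (gene ERN1), PERK (EIF2AK3) and ATF6 start the unfolded protein response, which raises chaperones and degradation factors through ATF6 and the spliced form of XBP1. PERK and related kinases phosphorylate the initiation factor eIF2, which slows translation in general but favors translation of ATF4 mRNA, and ATF4 then induces genes for amino acid synthesis and import and feedback regulators such as TRIB3 and DDIT3. Much of this control acts on splicing, phosphorylation, cleavage and translation, which an expression array does not read.

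The sequences that define these responses, and the supplied miRNA, are shown first. Mature miR-34a-5p (RefSeq, GRCh38.p14, chr1:9151735-9151756, minus strand) is given with its seed, bases 2 to 8, in capitals.
miR-34a-5p: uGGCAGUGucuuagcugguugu
The DNA letters that pair with that seed, CACTGCC, occurred in 220 of the 50599 array features (0.435%) and in 0 of the 51 features of these genes. A feature covers a short stretch of the transcript, so this count says nothing of sites elsewhere in the transcripts.

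RefSeq promoters (GRCh38.p14, from 250 bases before to 50 after the start site) were available here for 36 of the 39 genes, as 52 promoters. They were searched on both strands for the ER stress element (ERSE), which is CCAAT, 9 bases of any kind and CCACG. They were also searched for ERSE-II (ATTGG, 1 base and CCACG), for the ATF4 site TGATGNAA and for TGACGTG, the core of the unfolded protein response element. The ERSE was found in 0.0769% of 35116 promoters, those of 25 genes, and 7 of these 25 genes were among the 36. They are shown because the element marks the classical targets of the ER stress response, among them HSPA5 and XBP1, whose values are given with the results. The capitals mark the element from CCAAT to CCACG, or its reverse complement.
HSPA5 (chr9:125241376-125241424, gene on the minus strand): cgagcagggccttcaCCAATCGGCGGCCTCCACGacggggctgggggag
HSP90B1 (chr12:103930201-103930249, plus strand): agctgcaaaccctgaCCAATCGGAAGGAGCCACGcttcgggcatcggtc
PDIA6 (chr2:10812838-10812886, minus strand): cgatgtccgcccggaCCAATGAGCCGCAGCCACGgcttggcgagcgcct
CALR (chr19:12938369-12938417, plus strand): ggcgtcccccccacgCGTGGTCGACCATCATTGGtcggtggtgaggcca
CANX (chr5:179698763-179698811, plus strand): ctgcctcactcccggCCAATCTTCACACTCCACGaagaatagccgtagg
CRELD2 (chr22:49918539-49918587, plus strand): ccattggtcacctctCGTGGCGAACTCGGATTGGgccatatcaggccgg
XBP1 (chr22:28800588-28800636, minus strand): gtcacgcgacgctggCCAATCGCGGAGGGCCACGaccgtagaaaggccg
HSP90B1 held a further ERSE nearer to its start site, and the single CANX element lay in the windows of 3 annotated start sites. ERSE-II was found in 0.0541% of promoters and, among these genes, in those of SDF2L1 and HERPUD1. The ATF4 site is short and was found in 3.62% of promoters, among them those of HERPUD1, ATF3, CEBPG, CHAC1, ASNS and SLC3A2. The ERSE-II of HERPUD1, which also held an ATF4 site, and the ATF4 sites of ASNS and CHAC1 are shown as examples, with the motif or its reverse complement in capitals.
HERPUD1, ERSE-II (chr16:56932010-56932050, plus strand): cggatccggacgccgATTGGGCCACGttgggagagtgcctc
ASNS, ATF4 site (chr7:97872454-97872491, minus strand): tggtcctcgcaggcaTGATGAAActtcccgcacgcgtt
CHAC1, ATF4 site (chr15:40953247-40953284, plus strand): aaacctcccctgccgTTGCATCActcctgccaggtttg
TGACGTG was found in 1.97% of promoters and in 0 of these genes' windows. A match is a run of letters and not a measured binding site.

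**Figure D1:**
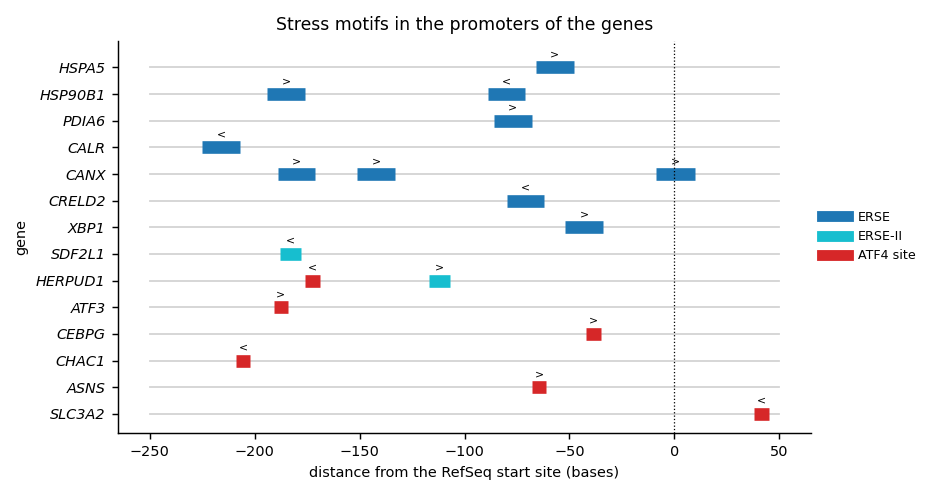
Positions of the motif matches in the RefSeq promoters, in bases from the start site (dotted line), with 1 line per gene from 250 bases before to 50 after it. Arrowheads give the strand relative to the gene, and CANX shows 1 element counted from 3 start sites. ERSE matches belonged to chaperones and XBP1, and ATF4 sites to HERPUD1, ATF3, CEBPG, CHAC1, ASNS and SLC3A2.

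Values are log2 processed signals relative to the 75th percentile of the array, and a difference is the miR-34a mimic mean minus the negative control mean. Between 41.8% and 45.2% of features were well above background on an array, and 38 of the 39 genes were well above background on all 4 arrays. All 7 markers of GIST and interstitial Cajal cells were tested, and 6 were lower and 1 higher. KIT and PDGFRA lay below their control level by over 1.5-fold. ANO1 and ETV1 differed by only -0.06 and -0.07, PRKCQ by -0.23 and GPR20 by -0.35, and CD34 was higher, by 0.37. Of the markers of other cell types, 2 of 4 for smooth muscle, 3 of 4 for leukocytes, 1 of 3 for endothelium and 1 of 3 for epithelium passed the detection filter. Most that passed were dim, with control means of -2.53 for CD3E, -2.87 for CD68, -2.70 for CD14, -2.64 for CDH5 and -2.27 for EPCAM. ACTG2 (-0.28) and DES (1.10) were brighter, and the GIST markers ran from 1.27 for PRKCQ to 8.01 for GPR20. SOX10, S100B, PECAM1, MYH11, CDH1 and KRT20 were not well above background on any array. Fewer cells with a transcript and less of it per cell cannot be told apart in bulk RNA.

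Most ER stress and ATF4 genes were slightly lower with the miR-34a mimic, and few differed by much. Of the 38 genes tested, 31 were lower, and the median log2 difference was -0.13, against -0.008 over the 21474 probes tested, of which 51.5% were lower. After quantile normalization 27 of the 38 genes (71.1%) and 46.4% of all tested probes were lower. Both mimic arrays lay below both control arrays for 22 genes, or 57.9%, against 30.1% of all tested probes. For 6 genes (15.8%) both mimic arrays lay above both control arrays, against 30.4% of all tested probes. These genes were brighter and varied less than the probes they are set against, since the signal of the median gene exceeded that of 89.7% of tested probes and the median SE was 0.064 against 0.081. The part of signal and spread in these shares was not tested.

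The size of the differences was small. STC2 alone was lower by more than 1.5-fold, 2.63% of the genes against 4.8% of all tested probes, and 0 genes were higher by that much, against 2.11% of all probes. The median absolute log2 difference was 0.14 for these genes and 0.15 for all tested probes. By limma with Benjamini-Hochberg adjustment over all tested probes, 0 genes and 0 probes passed an adjusted p under 0.05, the smallest adjusted p being 0.0948. At an unadjusted p under 0.05, 10 genes were lower (26.3%, against 11.6% of all tested probes) and 2 were higher (5.26%, against 12.7%). With the variance modeled along the signal, limma gave 4 genes lower at an adjusted p under 0.05, namely CANX, DNAJB9, XBP1 and TRIB3, against 3.6% of all tested probes. The same fit gave 2 genes higher, SLC7A11 and DDIT4, against 3.81% of all tested probes. The genes share arrays and are not replicates, so these shares are descriptions of the group.

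**Figure D2:**
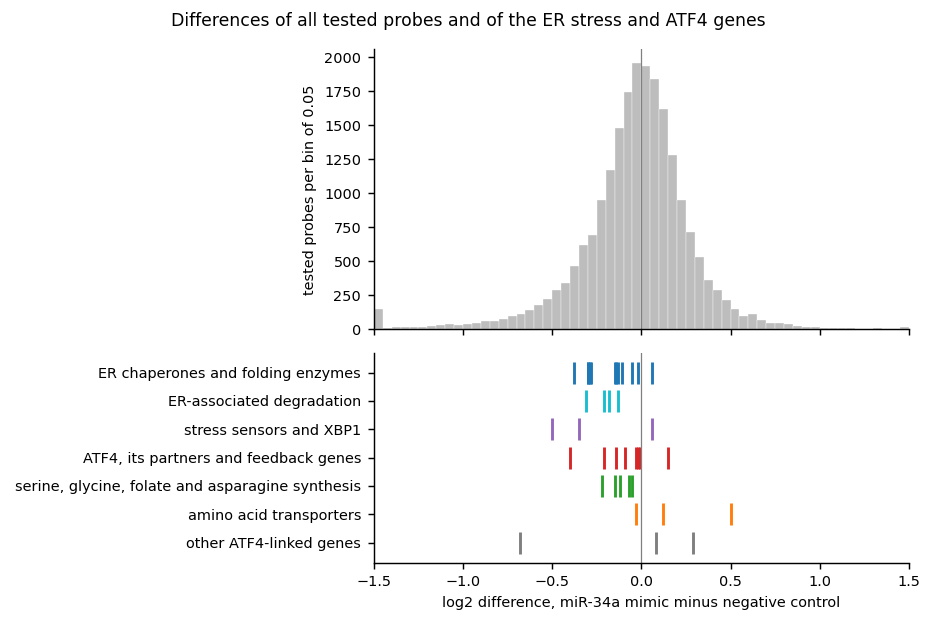
Distribution of the log2 difference (miR-34a mimic minus negative control) over the 21474 tested probes (top, number of probes per bin, with values beyond the axis in the end bins) and the differences of the 38 tested genes by role (bottom, 1 tick per gene). Most chaperone, degradation and synthesis genes lie a little left of 0, and SLC7A11 and DDIT4 lie to the right.

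Most chaperones and folding enzymes of the ER lumen and membrane were slightly lower. Of the 12 genes, 11 were lower, with a median of -0.14 and a range from -0.38 to 0.06, and 4 were lower at an unadjusted p under 0.05, where 51.5% of all tested probes were lower and 11.6% were lower at that p. HSPA5 (BiP), the main Hsp70 of the ER and the usual marker of the unfolded protein response, had log2 signals of 2.01 and 2.14 on the mimic arrays and 2.08 and 2.12 on the control arrays. Its control values lay within the range of the mimic values, with a difference of -0.02 and a 95% interval from -0.24 to 0.19, so a fall or rise of more than 1.5-fold lies outside that interval. CANX (calnexin), the membrane lectin that holds new glycoproteins for folding, had 2.03 and 2.18 with the mimic and 2.51 and 2.46 with the control. Both mimic arrays were lower, and the log2 difference was -0.38 with an SE of 0.079, a 1.3-fold lower level (limma adjusted p = 0.127, and 0.0397 with the variance trend). A second, dimmer CANX feature gave -0.01 and 0.15 against 0.06 and 0.22, a log2 difference of -0.08 (limma adjusted p = 0.657), and here the groups overlapped, unlike on the brighter feature. CALR (calreticulin), the soluble partner of calnexin, had 7.37 and 7.56 with the mimic against 7.82 and 7.72, a log2 difference of -0.30 with an SE of 0.096 (limma adjusted p = 0.187). Both mimic arrays lay below both control arrays for CALR and for the brighter feature of CANX, but not for the other CANX feature.

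DNAJB9 and DNAJC3 encode J-domain proteins that steer BiP. DNAJB9 had 3.60 and 3.64 with the mimic and 3.95 and 3.84 with the control, a log2 difference of -0.28 with an SE of 0.069 (limma adjusted p = 0.146, and 0.0466 with the variance trend). DNAJC3, which also restrains PERK, had 0.39 and 0.40 against 0.58 and 0.78, a log2 difference of -0.29 with an SE of 0.094 (limma adjusted p = 0.195). For both genes the groups did not overlap, while the gap between the control arrays of DNAJC3 was 0.21. HSP90B1 (GRP94), the Hsp90 of the ER, had 6.75 and 7.10 against 7.24 and 7.22, and its difference of -0.30 rested on the first mimic array, with 0.35 between the mimic arrays (limma adjusted p = 0.286). Its second feature had 2.60 and 1.78 against 2.81 and 2.64, a log2 difference of -0.53 with a gap of 0.82 between the mimic arrays (limma adjusted p = 0.366). Here the second mimic array was the lower, unlike on the brighter feature, and the groups overlapped on neither feature. The disulfide isomerases PDIA3, PDIA4 and PDIA6, the BiP co-factor DNAJB11 and its partner SDF2L1 had differences from -0.15 to -0.05. Each had an unadjusted p above 0.05 by limma. None had overlap between the groups, but both mimic arrays also lay below both control arrays for 30.1% of all tested probes. CRELD2, a gene induced by ER stress, was the only chaperone-group gene with a positive difference, of 0.06, and its groups overlapped.

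**Figure D3:**
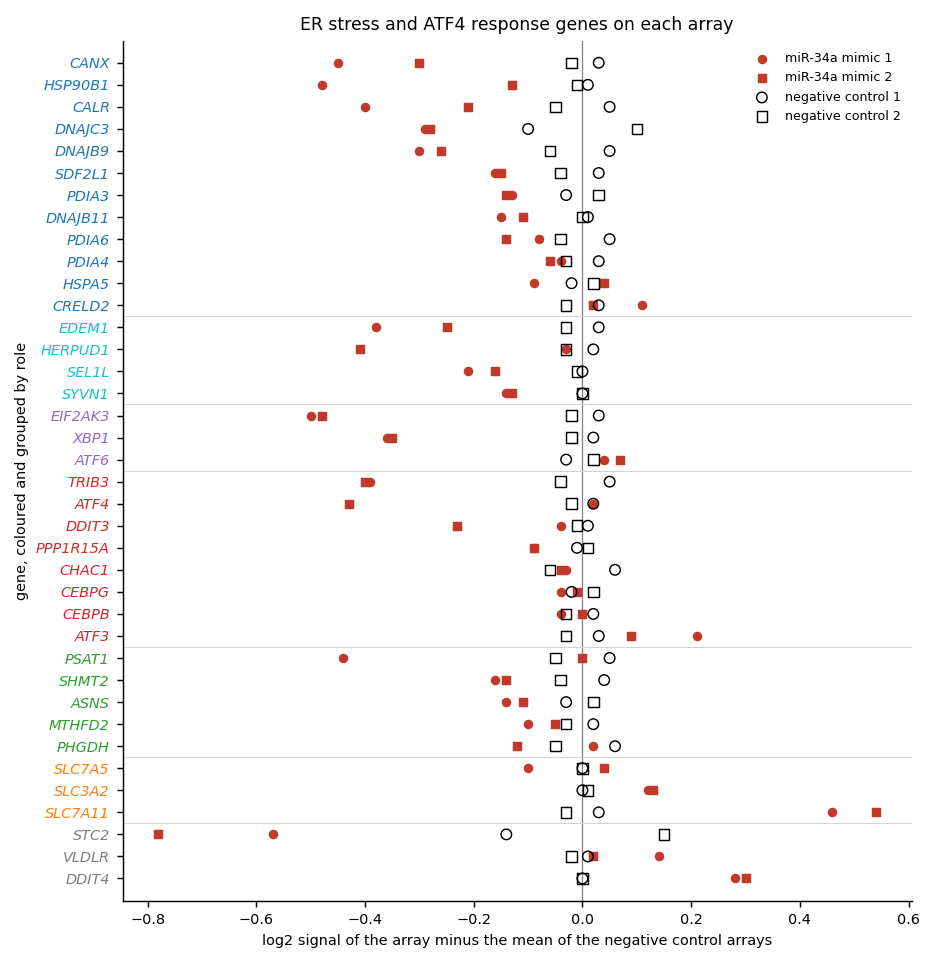
Log2 signal on each array minus the mean of the 2 negative control arrays, for the 38 tested genes grouped and colored by role (filled symbols, miR-34a mimic; open symbols, negative control; circles, replicate 1; squares, replicate 2). Replicates of CANX, DNAJB9, XBP1, EIF2AK3, TRIB3, SLC7A11 and DDIT4 sit close together and apart between groups, whereas ATF4, HERPUD1 and PSAT1 have 1 mimic array away from the other 3.

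The 4 genes of ER-associated degradation, which carries misfolded proteins back to the cytosol for destruction, were all lower, with differences from -0.31 to -0.13 and a median of -0.2. Over all tested probes 51.5% were lower. EDEM1, which recognizes trimmed glycans on misfolded proteins, had -0.88 and -0.75 with the mimic and -0.47 and -0.53 with the control. Its log2 difference was -0.31 with an SE of 0.075 (limma adjusted p = 0.141). SEL1L, the adaptor of the HRD1 ubiquitin ligase, had 1.31 and 1.36 against 1.52 and 1.51, a log2 difference of -0.18 with an SE of 0.055 (limma adjusted p = 0.179). Neither gene's groups overlapped, and a second SEL1L feature gave -0.17 (limma adjusted p = 0.247). SYVN1, which encodes HRD1 itself, differed by -0.13 (limma adjusted p = 0.244). HERPUD1, a membrane protein of the same complex, had 5.77 and 5.39 against 5.82 and 5.77. Only the second mimic array was low, and the difference of -0.21 did not exceed the spread between the mimic arrays (limma adjusted p = 0.437).

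Of the sensors, EIF2AK3 stood furthest from its control level. EIF2AK3 (PERK) had log2 signals of -1.84 and -1.82 with the mimic and -1.31 and -1.36 with the control, and both mimic arrays lay below both control arrays. The log2 difference was -0.50 with an SE of 0.055, a 1.41-fold lower level with a 95% interval from -0.66 to -0.33 on the log2 scale (limma adjusted p = 0.0948, and 0.099 with the variance trend). After normexp background correction the difference was -0.21. XBP1, the factor whose spliced mRNA drives the chaperone genes, had 5.62 and 5.63 with the mimic and 6.0 and 5.96 with the control, each a mean over 10 spots. This was a log2 difference of -0.35 with an SE of 0.053, a 1.28-fold lower level (limma adjusted p = 0.0983, and 0.0153 with the variance trend). The replicate arrays of XBP1 differed by no more than 0.04, and the array does not tell its spliced from its unspliced form. Its feature lies at chr22:29190733-29190792 of hg19, minus strand, by the array's annotation. ATF6, the sensor cleaved in the Golgi, differed by 0.06 (limma adjusted p = 0.557). ERN1 (IRE1) was left untested because only the second control array was well above background, with signals of -3.69 and -3.70 against -3.55 and -2.34. No fold is given for ERN1.

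In the ATF4 group the feedback gene TRIB3 was lower, and the factors themselves were near their control levels or uncertain. ATF4, the central activator, had 7.25 and 6.80 with the mimic and 7.25 and 7.21 with the control. The first mimic array equaled the controls, and the log2 difference of -0.21 had a 95% interval from -0.72 to 0.31 (limma adjusted p = 0.505). DDIT3 (CHOP), the factor linked to death under prolonged stress, had 3.47 and 3.28 against 3.52 and 3.50, a log2 difference of -0.14 with a 95% interval from -0.39 to 0.12 (limma adjusted p = 0.396). As for ATF4 and HERPUD1, the lower mimic value of DDIT3 was on the second array. TRIB3, a pseudokinase that is induced by ATF4 and CHOP and restrains them, had 7.70 and 7.69 with the mimic and 8.14 and 8.05 with the control. Its log2 difference was -0.40 with an SE of 0.061, a 1.32-fold lower level (limma adjusted p = 0.1, and 0.0176 with the variance trend). CHAC1, which degrades glutathione and is also an ATF4 target, differed by -0.03 on its brighter feature and by 0.01 on the other, with overlapping groups on both.

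The dimerization partners CEBPB and CEBPG differed by -0.01 and -0.02, with overlapping groups. PPP1R15A (GADD34), the phosphatase subunit that reverses eIF2 phosphorylation, differed by -0.09 (limma adjusted p = 0.355). ATF3, a stress-induced repressor, had the only positive value of the 8 genes, 0.15 (limma adjusted p = 0.313), and its other 3 features gave 0.06, -0.03 and -0.06. The median of the ATF4 group was -0.06, and TRIB3 was its only gene at an unadjusted p under 0.05. This 1 of 8 genes is near the 11.6% of all tested probes that were lower at that p.

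**Figure D4:**
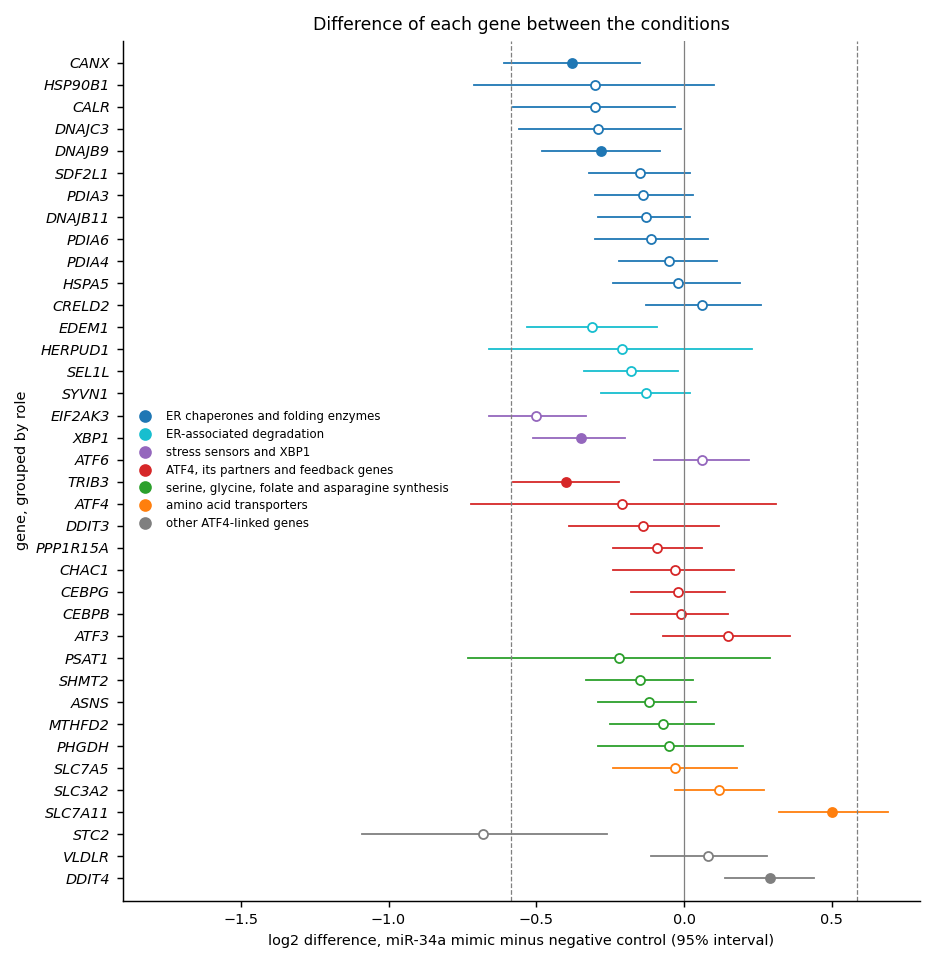
Log2 difference (miR-34a mimic minus negative control) of each tested gene with its 95% interval from limma, grouped by role. Filled points passed an adjusted p under 0.05 in the fit with a variance trend (4 lower, 2 higher) and dashed lines mark 1.5-fold, which only the STC2 point exceeds.

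The enzymes that ATF4 induces for amino acid and folate metabolism showed little difference. All 5 were lower, with differences from -0.22 to -0.05 and a median of -0.12, and 0 of them passed an unadjusted p under 0.05. For comparison, 51.5% of all tested probes were lower, and 11.6% were lower at that p. ASNS (asparagine synthetase), a standard readout of ATF4, had 8.78 and 8.81 with the mimic and 8.89 and 8.94 with the control. Its groups did not overlap, but the log2 difference was -0.12 with a 95% interval from -0.29 to 0.04 (limma adjusted p = 0.281), and it was 0.03 after quantile normalization. PSAT1, of serine synthesis, had 5.70 and 6.14 against 6.19 and 6.09, with only the first mimic array low, and its second feature gave a log2 difference of 0.00. PHGDH, the first enzyme of serine synthesis, differed by -0.05 with overlapping groups, and by 0.02 without the second mimic array. The mitochondrial folate enzymes SHMT2 and MTHFD2 differed by -0.15 and -0.07.

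Amino acid transport held the largest positive difference of the 38 genes. SLC7A11, the cystine importer that supplies glutathione synthesis, had log2 signals of 5.15 and 5.23 with the mimic and 4.72 and 4.66 with the control. Both mimic arrays were higher, and the log2 difference was 0.50 with an SE of 0.064, a 1.42-fold higher level with a 95% interval from 0.32 to 0.69 on the log2 scale (limma adjusted p = 0.0954, and 0.0124 with the variance trend). SLC3A2, the heavy chain that pairs with SLC7A11 and SLC7A5 at the membrane, had 5.55 and 5.56 against 5.43 and 5.44. This was a log2 difference of 0.12 (limma adjusted p = 0.263), small but larger than the gaps between replicates. SLC7A5, the large neutral amino acid importer, differed by -0.03 with overlapping groups.

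The remaining genes linked to ATF4 lay on either side of their control levels. DDIT4 (REDD1), an inhibitor of mTORC1 induced by several stresses, had 4.64 and 4.66 with the mimic and 4.36 and 4.36 with the control, each a mean over 10 spots. Its log2 difference was 0.29 with an SE of 0.052, a 1.22-fold higher level (limma adjusted p = 0.111, and 0.0205 with the variance trend). STC2, a secreted glycoprotein induced by PERK signaling, had -2.09 and -2.30 against -1.66 and -1.37. Its groups did not overlap, and the log2 difference of -0.68 had an SE of 0.14, a 1.6-fold lower level with a 95% interval from -1.09 to -0.26 on the log2 scale (limma adjusted p = 0.128, and 0.098 with the variance trend). The STC2 difference was -0.25 after normexp background correction, -0.57 without the second mimic array and -0.53 without the second control array. VLDLR, a lipoprotein receptor induced through PERK and ATF4, differed by 0.08 (limma adjusted p = 0.486).

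The genes with an element in the promoter are given with their differences, which were not tested against each other. Of the 7 genes with an ERSE, 6 were lower and 3 of them, CALR, CANX and XBP1, had an unadjusted p under 0.05, with differences from -0.38 to 0.06 over the 7. Over all 38 genes 81.6% were lower and 26.3% were lower at that p, and over all tested probes 51.5% and 11.6%. The share of lower genes among the 7 was thus near that of the 38, to which they belong. The 3 of 7 lower at that p were a larger share than in the 38 or in all probes, but of few genes, and this was not tested. HSPA5, whose element is printed first, was the one at -0.02. Of the 6 genes with an ATF4 site, 4 were lower, 0 passed an unadjusted p under 0.05, and the range was -0.21 to 0.15. SDF2L1 and HERPUD1, with ERSE-II, differed by -0.15 and -0.21. TRIB3, STC2 and DDIT4, which held none of these motifs in the windows searched, had differences of larger size than any gene with an ATF4 site. Other genes without a match, such as VLDLR (0.08), PHGDH (-0.05) and CEBPB (-0.01), differed by less than HERPUD1. Whether a site goes with the difference was not tested, and a promoter of SLC7A11 was not used here.

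**Figure D5:**
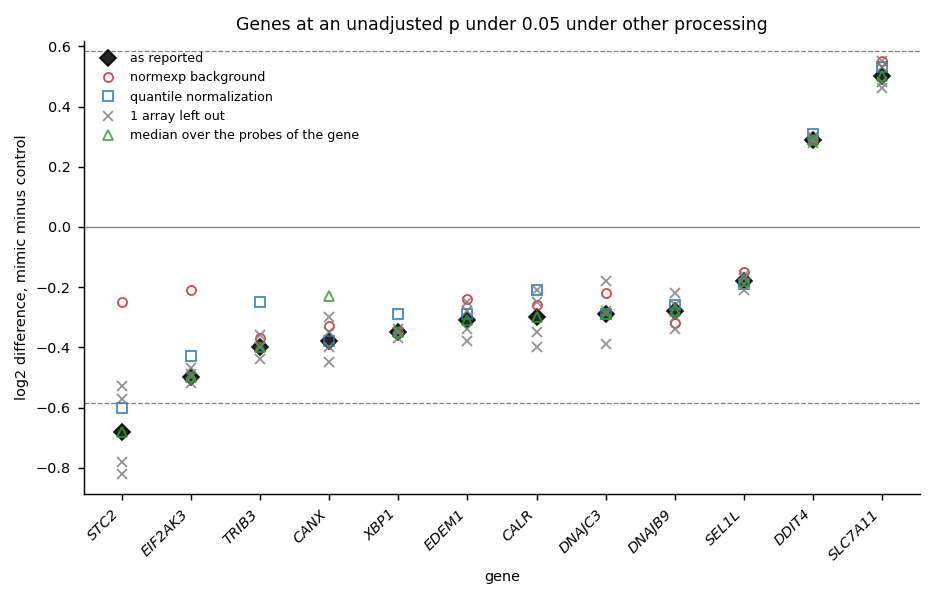
Log2 difference of the 12 genes with an unadjusted p under 0.05, as reported (black diamonds), after normexp background correction, after quantile normalization, with each array left out in turn, and as the median over the probes of the gene. Dashed lines mark 1.5-fold. STC2 and EIF2AK3 came nearest to 0 under normexp and TRIB3 under quantile normalization, and all 12 kept their sign under these settings.

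Other genes of the same pathways were compared in the same fit. Among 61 further genes of ER quality control, all tested, 39 were lower and 22 higher, with a median of -0.03. At an unadjusted p under 0.05, 9 were lower and 2 higher. Over all tested probes 51.5% were lower, and at that p 11.6% were lower and 12.7% higher. ATF6B, a relative of ATF6, differed by -0.46, CREB3L2, a membrane-bound factor cleaved like ATF6, by -0.40, and SRPR, the receptor that docks ribosomes at the ER, by -0.33. KDELR3, which returns chaperones to the ER, differed by 0.28 and MBTPS1, the protease that cleaves ATF6, by 0.21. Among 53 further genes of the integrated stress and amino acid responses, 50 were tested, 35 were lower and 15 higher, with a median of -0.05. At an unadjusted p under 0.05, 4 were lower and 3 higher, shares below the 11.6% and 12.7% of all tested probes. GDF15, a secreted stress cytokine that ATF4, CHOP and p53 can each induce, had 5.53 and 5.52 with the mimic and 6.59 and 6.61 with the control. This log2 difference of -1.07, a 2.11-fold lower level, was the only one of that list past 1.5-fold (limma adjusted p = 0.0948, and 0.00472 with the variance trend). SHMT1, of cytosolic folate metabolism, differed by -0.38, while JDP2, a repressor related to ATF3, differed by 0.36, KLHL24 by 0.29 and SQSTM1, the autophagy receptor p62, by 0.19.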

How the data were processed

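The authors deposited, for each of the 4 single-color arrays, the scanner output of Agilent Feature Extraction (10.7.3.1 per the file headers), which gives a processed intensity per spot after background subtraction, raw mean and background intensity, and flags. These deposited intensity values carry no scaling between arrays. The authors' table of all arrays was within 0.5% of them. The study names GeneSpring GX for its own analysis, and its scaling is not given in the sources used here. A miR-335 array was not analysed here.

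Control spots and outlier spots (293 to 424 of 58717 per array) were left out, 0 were saturated, and repeated spots were averaged per probe. Each array was scaled by subtracting its 75th percentile from the log2 signal. A probe was tested if, in either group, both arrays were well above background, which left 21474 probes (16192 gene names). Tests used lmFit and eBayes of limma 3.58.1 under R 4.3.3, and p-values were adjusted over all tested probes by Benjamini-Hochberg. The SD of the difference between replicates over these probes was 0.337 for the mimic and 0.29 for the control, and SEs of the tested genes ran from 0.052 to 0.18. With 2 arrays against 2, the smallest exact permutation p for 1 gene is 0.33, so the number of arrays sets the precision. All arrays lie on 1 slide and 1 scan. The limma calculation was also run on simulated data. The planted differences there were larger than that of any of these genes, so the run says nothing of differences as small as theirs.

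The genes, lists and tests were chosen with earlier results of these data known. Values of every array are given for genes past 1.5-fold or an unadjusted p of 0.05 and for HSPA5, XBP1, ATF4, DDIT3 and ASNS, and where a feature or array stood apart. From the other pathway lists the 5 largest decreases and 5 largest increases at that p were named. Alternatives were normexp (offset 50), quantile normalization, another percentile base, other filters, the authors' table, a replicate block, a variance trend, the methods' t-test, each array left out, and the median over probes. Gene names and hg19 positions are the array's, motif and miRNA positions those of RefSeq on GRCh38.p14. Exon annotation and protein sequences were not used here.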

Additional observations from a re-analysis of the deposited data

How the results depend on the processing

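Of the counts and the median over the 38 genes, 91 recomputed values stayed near those reported and 12 moved. Near included 7 against 10 genes lower at an unadjusted p under 0.05, and 27 against 31 lower at any size. The variance trend, replicate block and t-test kept each log2 difference, and the filter for signal on every array kept the same 38 genes and differences. Their fold counts, medians and counts lower at any size could therefore not change. The authors' table was within 0.5% of the input, so it tested little. The 91 therefore overstates how much was tested. The count lower by more than 1.5-fold, 1 as reported, was 0 under normexp, 2 without a filter on dim probes (ERN1 added) and 0 to 1 with 1 array left out (0 without the second mimic or the second control array). The count at an adjusted p under 0.05, 0 as reported by limma, was 5 under normexp (DNAJB9, XBP1, TRIB3, SLC7A11 and DDIT4) and 6 with the variance trend. The count lower at an unadjusted p under 0.05, 10 as reported, was 17 with the variance trend and 5 to 8 with 1 array left out, the lowest without the first control array and 6 without the second. By a t-test on each probe, 11 genes were lower and 3 higher at its unadjusted threshold, with 0 left after Benjamini-Hochberg adjustment. Among these alternatives, the share of all tested probes past a p threshold is given only for the adjusted p with the variance trend. The other counts can therefore not be set against the array. With the replicate block the count of lower genes was 7 (the deviations of same-numbered arrays correlated at -0.028 in 2 pairs, so the numbers were not taken to pair the arrays). The median of -0.13 was -0.10 under normexp, -0.10 under quantile normalization and -0.13 to -0.10 with 1 array left out (-0.10 without the second mimic array). The counts lower at any size, with counts without overlap, were recomputed as an addition chosen after seeing the data, and 27 to 32 genes were lower. Signs were followed over all settings for genes past 1.5-fold or an unadjusted p of 0.05 and for HSPA5, XBP1, ATF4, DDIT3 and ASNS. Among them, the difference reversed for ASNS under quantile normalization (0.03). HSPA5 reversed without the first mimic array (0.04, with -0.09 to 0.04 over the arrays left out). ATF4 reversed without the second mimic array (0.02, with -0.43 to 0.02). As reported, 0 of these passed an unadjusted p of 0.05. Other genes near their control level also changed sign with 1 array left out, among them SLC7A5 (up to 0.04), PHGDH (0.02), CHAC1 (0.03) and CEBPB (0.01). The cause of these shifts was not tested.

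Genes with adjusted p under 0.05 in some settings had wide ranges over all settings: XBP1 0.0153 to 0.357, TRIB3 0.0176 to 0.357, SLC7A11 0.0124 to 0.357, DDIT4 0.0205 to 0.368, CANX 0.0397 to 0.383 and DNAJB9 0.046 to 0.405. Their differences kept their sign in every setting. ERN1 was well above background on 1 of 4 arrays, which limits it to values without a test, while STC2 and EIF2AK3 were well above background on all 4.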

Other observations

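Heat shock genes of the cytosol and mitochondria, which answer protein misfolding outside the ER, were mixed. Of 22 genes tested, 13 were lower and 9 higher, with a median log2 difference of -0.09, and 2 were lower and 4 higher at an unadjusted p under 0.05 by limma. Over all tested probes 51.5% were lower, and at that p 11.6% were lower and 12.7% higher, so these counts are near the shares of the array. HSPA9, the Hsp70 of mitochondria, differed by -0.31 and HSPA1A, the inducible cytosolic Hsp70, by -0.26. HSPA8, the constitutive cytosolic Hsp70, differed by 0.18, and the co-chaperones DNAJA1 and AHSA1 by 0.22 and 0.21. CRYAB, a small heat shock protein, differed by 0.29. HSPA1A has a near-identical copy, HSPA1B (-0.21), so its feature may read both. These genes were named after their values were seen, as those past the unadjusted threshold.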
